A study of Mus musculus with 110 samples.

Results

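The levels of 10 transcription regulators of heat-producing fat were followed through 4 tissues of mice on a control or a methionine-restricted diet at room temperature or in the cold. They were the coactivators Ppargc1a and Ppargc1b, the lipid-sensing nuclear receptors Ppara, Pparg and Ppard, the oestrogen-related receptors Esrra and Esrrg, the brown fat identity factors Prdm16 and Ebf2, and the interferon regulatory factor Irf4. They were chosen by name, as regulators of the thermogenic programme, and each had 1 row in each of the 3 deposited count tables, so that they made up 10 of 56884 gene rows. Messenger RNA was sequenced from Liver, interscapular brown fat (iBAT), inguinal subcutaneous white fat (iWAT) and epididymal visceral white fat (eWAT) of 28 mice. All groups were male wild-type C57BL/6N mice, 16 weeks old, and all ate a diet without cysteine, so the control groups were cysteine-depleted too. Ctrl_RT mice had the methionine-replete diet for 7 days at 22 °C, MetR_RT mice the methionine-restricted diet for 7 days at 22 °C, and Ctrl_CE and MetR_CE mice the respective diet for 7 days with cold exposure at 4 °C for a further 24 h. The comparisons asked what cold, methionine restriction and both together did to each regulator, and whether the diet changed the response to cold.

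As background, brown fat and the beige cells of subcutaneous white fat make heat by letting protons leak across the inner mitochondrial membrane through the uncoupling protein Ucp1. Cold reaches these cells as noradrenaline, which acts through beta-adrenergic receptors, cyclic AMP and the factor CREB on the gene for PGC-1alpha (Ppargc1a). PGC-1alpha and its relative PGC-1beta (Ppargc1b) then bind PPARs and oestrogen-related receptors to raise transcription of mitochondrial and fatty acid oxidation genes. Prdm16 and Ebf2 set the brown identity of the cell, and Irf4 is induced by fasting and works with PGC-1alpha on Ucp1. In liver the same coactivators and PPARalpha (Ppara) serve gluconeogenesis, fatty acid oxidation and ketogenesis during fasting, so the 10 genes are not particular to fat.

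Promoters are printed for 4 of the genes whose levels moved with cold, diet or both in the results that follow, so that the stretch of DNA the regulators themselves are read from is in view. The windows run from 250 bases before to 50 bases after an annotated start of RefSeq on GRCm38.p6, 5′ to 3′ on the gene's strand. Windows of 8 of the 10 genes were searched, 13 windows in all. Motifs were searched on both strands. They were the cyclic AMP response element TGACGTCA and its core TGACG, which lies within it. The others were the oestrogen-related receptor element TCAAGGTCA, the nuclear receptor hexamer AGGTCA, which lies within that element, and a pair of such hexamers with a base between, the form that PPARs bind. Of 32851 promoter windows of this length, 1.79% held TGACGTCA, 20.8% TGACG, 0.423% TCAAGGTCA, 16.3% AGGTCA and 0.0396% the spaced pair. Capitals mark a match: CGTCA in Ppargc1a, which is TGACG read on the other strand, at bases -49 to -45 from the start, TGACG in Ppara at -222 to -218 and AGGTCA in Pparg at -28 to -23. The window of Esrra held none of these motifs.
Ppargc1a, chr5:51567676-51567975, minus strand: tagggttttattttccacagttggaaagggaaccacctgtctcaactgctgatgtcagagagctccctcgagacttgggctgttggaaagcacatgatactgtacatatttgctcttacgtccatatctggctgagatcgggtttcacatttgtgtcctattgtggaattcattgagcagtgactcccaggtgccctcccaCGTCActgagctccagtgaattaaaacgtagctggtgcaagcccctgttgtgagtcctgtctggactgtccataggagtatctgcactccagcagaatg
Ppara, chr15:85735526-85735825, plus strand: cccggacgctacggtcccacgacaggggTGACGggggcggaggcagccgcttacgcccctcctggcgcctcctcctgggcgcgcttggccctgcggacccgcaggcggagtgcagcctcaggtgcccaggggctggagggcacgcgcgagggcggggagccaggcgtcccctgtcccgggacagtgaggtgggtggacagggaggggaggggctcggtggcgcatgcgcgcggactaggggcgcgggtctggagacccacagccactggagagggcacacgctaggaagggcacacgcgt
Pparg, chr6:115360894-115361193, plus strand: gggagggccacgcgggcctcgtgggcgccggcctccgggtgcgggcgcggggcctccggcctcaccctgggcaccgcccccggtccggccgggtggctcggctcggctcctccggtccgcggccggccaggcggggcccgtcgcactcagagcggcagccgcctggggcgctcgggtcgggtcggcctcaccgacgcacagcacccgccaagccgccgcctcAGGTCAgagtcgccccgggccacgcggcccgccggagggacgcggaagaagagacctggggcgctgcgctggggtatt
Esrra, chr19:6921759-6922058, minus strand: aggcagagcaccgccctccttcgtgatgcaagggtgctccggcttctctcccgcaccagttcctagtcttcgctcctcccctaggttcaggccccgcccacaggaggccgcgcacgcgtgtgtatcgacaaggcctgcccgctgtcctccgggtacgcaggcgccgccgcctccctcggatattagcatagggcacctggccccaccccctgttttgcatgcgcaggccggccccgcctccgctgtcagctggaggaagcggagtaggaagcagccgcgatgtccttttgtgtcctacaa

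Beyond these 4 windows, TGACG lay at -4 to 0 in a window of Ppard and AGGTCA at -9 to -4 in a second window of Pparg. The full element TGACGTCA, TCAAGGTCA and the spaced pair were in none of the 13 windows. No window of Ppargc1b or Ebf2 was among them, so the promoters of these genes were not searched. A match is a description of the letters in a window and not a binding site.

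Levels are given in CPM, the usual unit for the reads assigned to a gene relative to all counted reads of its library. All 110 libraries were scaled together for this by the trimmed mean of M values. The analysis used 105 libraries, 7 per group except for 6 in iBAT Ctrl_RT, iBAT Ctrl_CE, iWAT MetR_CE and eWAT MetR_RT and 4 in eWAT Ctrl_RT, each from a separate mouse within its tissue and group. Counted reads ranged from 6987895 to 33444374 per library, so a level of 1 CPM stood for about 7 reads in the shallowest library. The 5 libraries left out, 3 of them from eWAT Ctrl_RT, were taken to be those excluded by the authors, as inferred from the study's mean counts. In iBAT the treatment tag and the title name different groups for 3 libraries, replicate 1 of each group other than Ctrl_RT, and the title was followed here. Tissue markers bore out the labels. Summed hepatocyte markers were at 57512 CPM or more in Liver, summed adipocyte markers at 3252 CPM or more in all fat libraries, and 5 summed brown fat markers at 10253 CPM or more in iBAT. Ucp1 was at 0 in every liver library. Cpn2, also 1 of these 5 markers, went the other way, at 324 to 825 CPM in Liver and 40.8 to 137 CPM in iBAT. In bulk tissue, fewer cells of a type and less RNA of a gene per cell cannot be told apart, and this holds for every value that follows.

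At room temperature on the control diet all 10 genes had their highest mean level in iBAT. Scaled to exon length, which allows genes to be compared with each other, the iBAT Ctrl_RT means ran from 4.29 CPM per kb for Esrrg and 5.30 for Irf4 to 57.6 for Ppara, 69.6 for Esrra and 84.1 for Pparg, with Ppargc1a at 7.08 and Ppargc1b at 35.5. Without that scaling, Prdm16 averaged 64.6 ± 9.58 CPM (SD, n = 6) in iBAT, 16.1 ± 4.96 CPM (n = 7) in iWAT, 7.68 ± 0.788 CPM (n = 4) in eWAT and 0.436 ± 0.163 CPM (n = 7) in Liver, and every step of that order passed an exact permutation test. Ppara was the gene whose order put Liver in second place with clear steps: 221 ± 58.5 CPM in iBAT, 68.5 ± 20.9 CPM in Liver, 13.8 ± 8.66 CPM in iWAT and 5.29 ± 0.500 CPM in eWAT. Ppargc1b averaged 142 ± 24.7 CPM in iBAT and 14.7 ± 5.89 CPM in iWAT, then 7.26 in eWAT and 4.76 in Liver, where the last 2 steps did not pass. Ppargc1a averaged 46.7 ± 17.1 CPM in iBAT, while 8.94 in iWAT, 7.62 in Liver and 6.56 in eWAT did not differ beyond their spread. Over the 30 pairs of neighbouring tissues in the orders of the 10 genes, 18 differed at an adjusted p under 0.05 in 2-sided exact permutation tests of log2 CPM (7 libraries against 7 can reach p = 0.000583). The tissues came from the same mice, and these tests did not use that pairing. In a paired sign-flip test over at most 7 mice the smallest adjusted p was 0.0938, above the threshold.

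The steps that did not pass lay mostly between the white depots and Liver. Pparg was at 155 CPM in eWAT and 133 CPM in iWAT, Ppard at 39.4 and 34.8 CPM, and Ebf2 at 39.4 and 41.4 CPM, each pair within its spread. Esrra was at 84.3 CPM in iWAT, 68.8 in eWAT and 58.3 in Liver, with no called step among them. Esrrg, a receptor of oxidative tissues that is active without a hormone, was at 26.6 ± 3.54 CPM in iBAT and between 1.05 and 1.84 CPM elsewhere. Irf4 was at 26 CPM in iBAT and 20.4 CPM in iWAT, a pair that did not differ beyond its spread, and at 8.36 CPM in eWAT and 0.332 CPM in Liver. Ebf2 had 6 reads in all 28 liver libraries together and 0 in 24 of them, so it was not tested there.

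**Figure D1:**
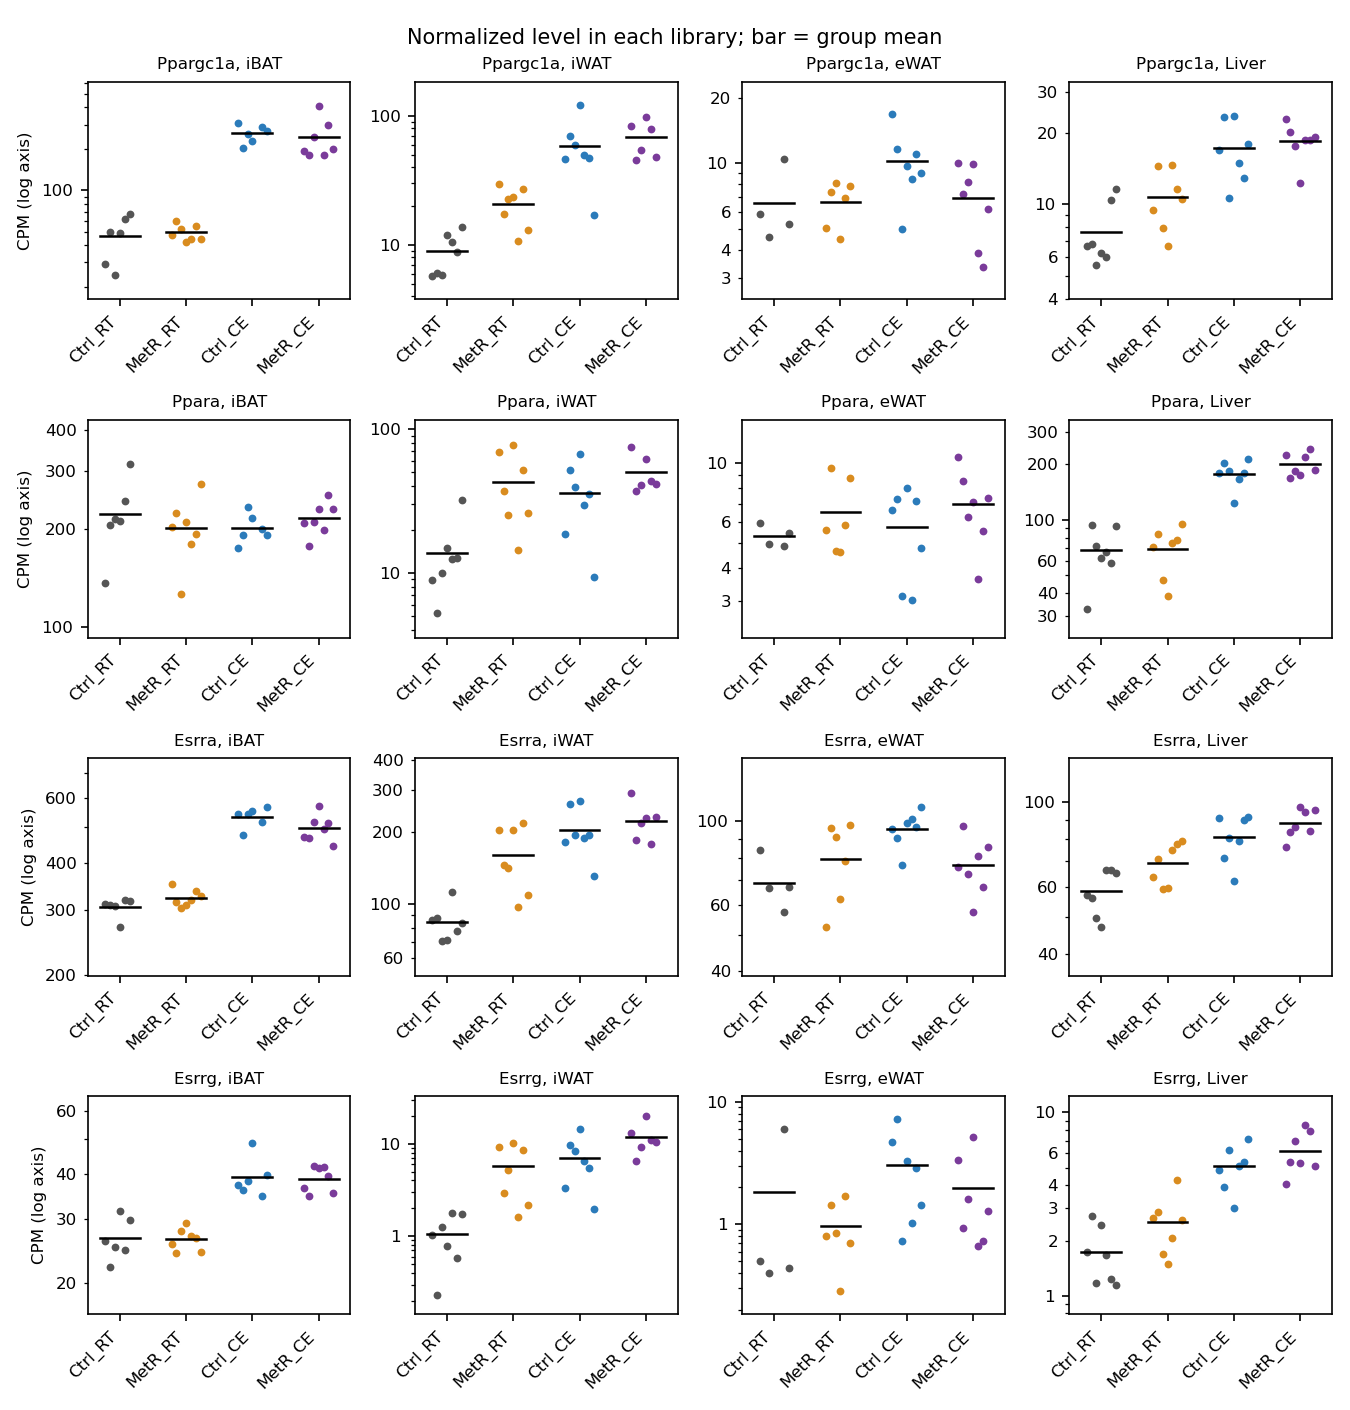
Level of Ppargc1a, Ppara, Esrra and Esrrg in each library, in CPM on a log axis, with a panel per gene and tissue, a column of points per group and a bar at the group mean. Ppargc1a was higher in the cold in iBAT, iWAT and Liver, from a mean of 46.7 to 259.6 CPM in iBAT, and Ppara in iBAT stayed between 126 and 316 CPM in all groups.

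By the test in each tissue, 7 of the 10 genes rose in iWAT under either stress, iBAT gave called changes with cold and none with the diet, Liver gave more with cold than with the diet, and eWAT gave few. A gene is called here when its adjusted p was under 0.05 in the quasi-likelihood test of edgeR, with Benjamini-Hochberg adjustment over every gene tested in that tissue. Every fold change is a log2 ratio ± its standard error from the fit within a tissue. The 3 comparisons with Ctrl_RT share the same control libraries, so they are not independent of each other. In iWAT, 7 of 10 genes rose and 0 fell with cold, against 30.8% of 26428 genes called in either direction. With methionine restriction 7 rose and 0 fell against 22.4%, and with both 7 rose and 1 fell against 37%. The median log2 fold change of the 10 genes in iWAT was 0.98, 0.76 and 1.14 in these 3 comparisons, beside -0.11, -0.03 and -0.08 over all genes. In Liver, 7 of 9 tested genes rose and 1 fell with cold (background 28.8% of 22143 genes). Without Liver Ctrl_RT replicate 1 the cold calls of Ppargc1b (0.56) and Ppard (-0.27) were lost. With the diet 2 rose and 1 fell (18.8% of genes), and without Ctrl_RT replicate 1 the diet called 1 gene, Pparg. With both, 6 rose and 1 fell in Liver (30.3%), and the medians were 0.70, 0.22 and 0.64 beside -0.01, 0.00 and -0.04. Summed markers of other cells moved in the same Liver comparisons, and their part in these counts was not tested. The sum of 4 endothelial markers was 79.4 to 107.6 CPM in Ctrl_RT, 106 to 131 CPM in MetR_RT, 147 to 242.5 CPM in Ctrl_CE and 189 to 221 CPM in MetR_CE, and the medians of the macrophage sum were 194, 144, 360.1 and 203 CPM in the same order. In iBAT, 5 rose and 1 fell with cold (33.2% of 23915 genes) and 4 rose and 1 fell with both (33.4%), with medians of 0.22 and 0.06 beside -0.08 and -0.10. With the diet alone in iBAT the count was 0 against a background of 6.8%, DESeq2 also called 0, and 1 gene (Irf4) had an unadjusted p under 0.05. In eWAT, 1 rose and 1 fell with cold (5.27% of 27786 genes) and 1 rose with both (2.7%), with medians of 0.35 and 0.10 beside -0.01 and -0.03. With the diet alone in eWAT the count was 0 against 0.148%, while DESeq2 called Pparg, and 1 gene (Pparg) had an unadjusted p under 0.05.

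**Figure D2:**
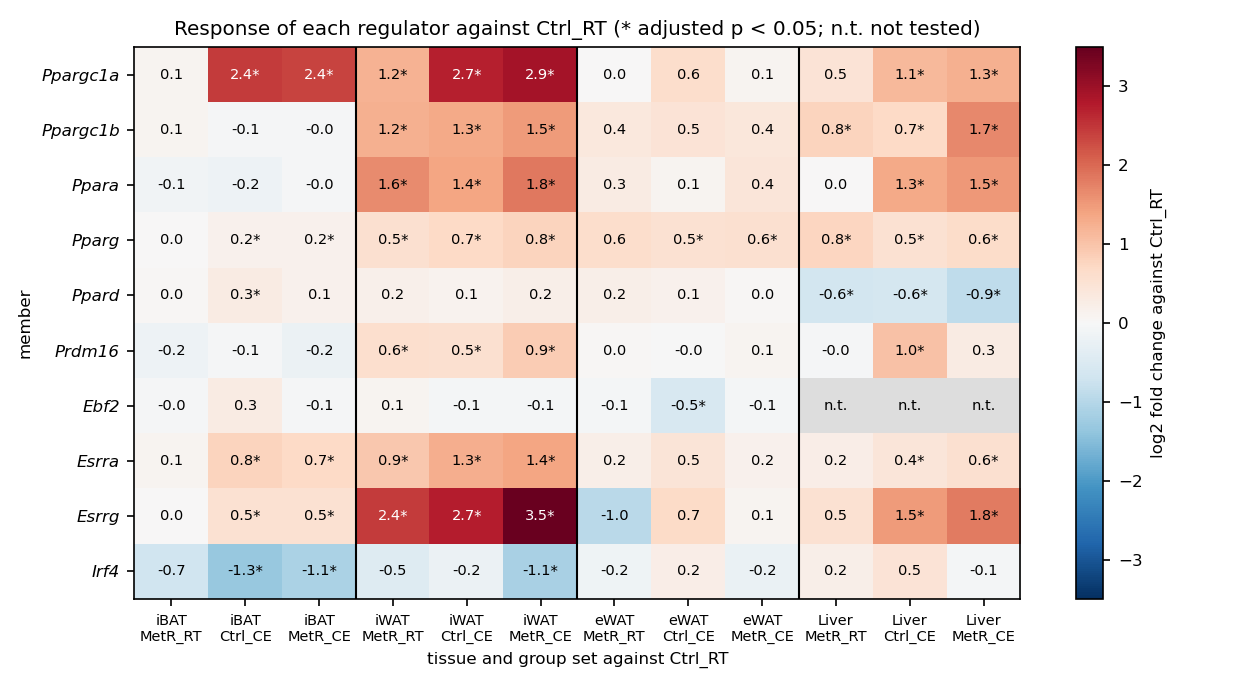
Heat map of the log2 fold change of each of the 10 genes against Ctrl_RT of the same tissue, with a row per gene and a column per tissue and group; a star marks an adjusted p under 0.05 and n.t. a gene that was not tested. The iWAT columns hold the most stars, and the largest value shown for Ppargc1a is 2.92 in iWAT MetR_CE.

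Ppargc1a (chr5:51454250-51567726, GRCm38, minus strand), the gene for the cold-inducible coactivator PGC-1alpha, rose with cold in iBAT, iWAT and Liver and with methionine restriction in iWAT alone among the tissues by the test in each. In iBAT its libraries held 24.2 to 67 CPM (median 49.1) in Ctrl_RT and 42.4 to 59.98 CPM (median 47) in MetR_RT. Under cold, Ppargc1a was at 202 to 310.4 CPM (median 263.9) in Ctrl_CE and 179.6 to 412 CPM (median 199.6) in MetR_CE. All 13 cold libraries stood above all 13 room temperature libraries. The log2 fold change was 2.44 ± 0.21, adjusted p = 2.9e-10 with cold and 2.37 ± 0.21, adjusted p = 4.2e-10 with both, which is 5.41-fold and 5.18-fold. The diet alone gave 0.10 ± 0.20, adjusted p = 0.832. Cold on the restricted diet (MetR_CE against MetR_RT) gave 2.27 ± 0.19, adjusted p = 9.03e-10. The interaction of diet and cold, that is the difference between the cold responses on the 2 diets, was -0.16 ± 0.27, adjusted p = 0.874.

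In iWAT the order of the groups was graded. Ppargc1a was at 5.74 to 13.7 CPM (median 8.83) in Ctrl_RT and 10.6 to 29.8 CPM (median 22.6) in MetR_RT. Under cold, Ppargc1a was at 16.9 to 122 CPM (median 49.6) in Ctrl_CE and 45.6 to 98.1 CPM (median 66.6) in MetR_CE. Neither cold group overlapped Ctrl_RT, while MetR_RT did. The diet raised it 2.31-fold (log2 1.21 ± 0.31, adjusted p = 0.00508), cold 6.54-fold (2.71 ± 0.32, adjusted p = 1.13e-06) and both 7.58-fold (2.92 ± 0.33, adjusted p = 2.29e-07). It was the 1 gene of the 10 in iWAT at which the stresses could be told apart. Ctrl_CE stood above MetR_RT by 1.5 ± 0.30, adjusted p = 0.00631, against 3.71% of genes called in that comparison, and MetR_CE above MetR_RT by 1.72 ± 0.31, adjusted p = 0.00232, against 5.41%. MetR_CE and Ctrl_CE differed by 0.21 ± 0.31, adjusted p = 0.773, and the interaction was -0.99 ± 0.43, adjusted p = 0.211.

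In Liver, where PGC-1alpha serves gluconeogenesis, Ppargc1a was at 5.56 to 11.6 CPM (median 6.68) in Ctrl_RT and 6.67 to 14.7 CPM (median 10.6) in MetR_RT. Under cold, Ppargc1a was at 10.7 to 23.7 CPM (median 17) in Ctrl_CE and 12.3 to 23 CPM (median 18.7) in MetR_CE. It rose with cold by 1.13 ± 0.20, adjusted p = 5.52e-05, and with both by 1.26 ± 0.20, adjusted p = 8.8e-06, where the groups did not overlap. The diet gave 0.48 ± 0.20, adjusted p = 0.0967, which did not pass. In eWAT the 4 Ctrl_RT libraries held 5.85, 4.597, 10.5 and 5.29 CPM, and the other groups lay at 4.49 to 8.15 CPM (median 7.17) in MetR_RT, 4.98 to 16.8 CPM (median 9.75) in Ctrl_CE and 3.36 to 10.1 CPM (median 7.21) in MetR_CE. The cold difference there was 0.61 ± 0.31, adjusted p = 0.284, so the epididymal depot held at most 16.8 CPM in any library used, below the lowest iBAT library.

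Ppargc1b, the gene for the relative PGC-1beta, a coactivator of mitochondrial and lipogenic genes, rose in iWAT and Liver and not in iBAT. In iBAT it held 114 to 176 CPM (median 142) in Ctrl_RT and 125 to 158 CPM (median 139.9) in Ctrl_CE, a difference of -0.05 ± 0.09, adjusted p = 0.718. In iWAT it was at 6.67 to 22.4 CPM (median 14.7) in Ctrl_RT and 13 to 53.9 CPM (median 36.8) in MetR_RT. Under cold, Ppargc1b was at 12.3 to 63.2 CPM (median 36.6) in Ctrl_CE and 30.2 to 58.5 CPM (median 37.7) in MetR_CE. The single stresses overlapped the control group and MetR_CE did not. The changes were nearly alike in size, at 1.24 ± 0.32, adjusted p = 0.00486 with the diet, 1.33 ± 0.32, adjusted p = 0.00203 with cold and 1.49 ± 0.33, adjusted p = 0.000592 with both. Ctrl_CE against MetR_RT gave 0.09 ± 0.31, adjusted p = 0.922. In Liver the gene was at 1.56 to 6.90 CPM (median 5.25) in Ctrl_RT and 4.41 to 10.3 CPM (median 9.34) in MetR_RT. Under cold, Ppargc1b was at 3.37 to 10.6 CPM (median 8.69) in Ctrl_CE and 9.06 to 24.3 CPM (median 14.2) in MetR_CE. There both stresses raised it, by 0.78 ± 0.25, adjusted p = 0.0269 with the diet, 0.70 ± 0.25, adjusted p = 0.0348 with cold and 1.68 ± 0.25, adjusted p = 3.44e-06 with both. The interaction of 0.20 ± 0.34, adjusted p = 0.831 did not pass. It was the 1 gene of the 9 tested in Liver with a called diet effect in the cold, 0.98 ± 0.23, adjusted p = 0.00469 for MetR_CE against Ctrl_CE, where 12.1% of genes were called. Without Liver Ctrl_RT replicate 1, the lowest of its group for this gene at 1.56 CPM, the changes were 0.62 with the diet and 0.56 with cold, and neither passed. The cold change also did not pass with only the groups compared in the fit, at 0.70. In eWAT the means were 7.26, 9.41, 10.3 and 9.55 CPM in Ctrl_RT, MetR_RT, Ctrl_CE and MetR_CE, with adjusted p from 0.241 to 0.647 against Ctrl_RT.

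Ppara (chr15:85734983-85802819, plus strand) encodes the fatty-acid-activated receptor of oxidation genes, with high levels in liver and brown fat. In Liver it was at 33.1 to 93.9 CPM (median 67) in Ctrl_RT and 38.8 to 95.3 CPM (median 74.6) in MetR_RT, and at 123 to 214 CPM (median 180.0) in Ctrl_CE and 169 to 243.4 CPM (median 186) in MetR_CE. All 14 cold libraries stood above all 14 room temperature libraries. Cold raised it 2.51-fold on the control diet (1.33 ± 0.17, adjusted p = 1.08e-06) and 2.88-fold on the restricted diet (1.52 ± 0.17, adjusted p = 4.19e-07), while the diet alone gave 0.00 ± 0.17, adjusted p = 0.996. In iWAT, Ppara was at 5.26 to 32.1 CPM (median 12.5) in Ctrl_RT and 14.3 to 78.3 CPM (median 37) in MetR_RT. Under cold, Ppara was at 9.27 to 67.7 CPM (median 35.2) in Ctrl_CE and 37 to 75 CPM (median 42.5) in MetR_CE. In iWAT, Ctrl_RT replicate 7 at 32.1 CPM stood apart from the other 6, which reached 15 CPM. Both stresses raised it, by 1.64 ± 0.39, adjusted p = 0.00309 with the diet, 1.37 ± 0.39, adjusted p = 0.00873 with cold and 1.85 ± 0.41, adjusted p = 0.000652 together. Without that library the diet effect in iWAT was 2.01 and the cold effect 1.74. In iBAT the level was the highest of the 4 tissues, with no called change, at 136 to 316 CPM (median 213) in Ctrl_RT and 175 to 233 CPM (median 195) in Ctrl_CE (-0.18 ± 0.14, adjusted p = 0.39). In eWAT no library passed 10.5 CPM and the differences from Ctrl_RT lay between 0.09 and 0.41, none of them called.

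Pparg (chr6:115360951-115490399, plus strand), the master regulator of fat cell differentiation, rose in every tissue with cold. In iWAT it was at 78.7 to 183 CPM (median 117) in Ctrl_RT and 181 to 208 CPM (median 189.5) in MetR_RT. Under cold, Pparg was at 173 to 251.7 CPM (median 217) in Ctrl_CE and 198 to 260.9 CPM (median 223) in MetR_CE, so MetR_RT was the narrowest group and Ctrl_RT the widest. The changes were 0.55 ± 0.13, adjusted p = 0.00352 with the diet, 0.69 ± 0.13, adjusted p = 0.0003 with cold and 0.77 ± 0.14, adjusted p = 7.11e-05 with both. In iBAT it went from 227 to 280.96 CPM (median 245.4) in Ctrl_RT to 253.995 to 312 CPM (median 282.2) in Ctrl_CE and 252.6 to 308 CPM (median 277.2) in MetR_CE, small changes of 0.15 ± 0.06, adjusted p = 0.0352 and 0.16 ± 0.05, adjusted p = 0.022 with overlapping groups. The iBAT cold call did not hold without the libraries of the mouse that was high for Irf4 (Ctrl_CE replicate 4), where the change was 0.12, or without Ctrl_RT replicate 4, at 0.14. Nor did it hold with the 3 tagged libraries grouped by their tag or left out, at 0.15 each time. In eWAT the 4 Ctrl_RT libraries held 169, 201, 101 and 148 CPM, beside 207 to 256.4 CPM (median 238) in MetR_RT, 184 to 279.8 CPM (median 225) in Ctrl_CE and 187 to 271.9 CPM (median 227) in MetR_CE. Cold gave 0.53 ± 0.14, adjusted p = 0.0271 and both gave 0.56 ± 0.14, adjusted p = 0.0251, while the diet gave the largest value with groups that did not overlap but did not pass, at 0.61 ± 0.14, adjusted p = 0.0836. Leaving out Ctrl_RT replicate 1, 6 or 7 of eWAT ended the calls with cold and with both, to 0.57, 0.37 and 0.51 with cold. The diet call was gained without Ctrl_RT replicate 3, at 0.77.

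In Liver, where Pparg is low, it was at 5.53 to 7.90 CPM (median 7.18) in Ctrl_RT and 9.33 to 15.1 CPM (median 11.5) in MetR_RT. Under cold, Pparg was at 8.84 to 13.9 CPM (median 10.5) in Ctrl_CE and 8.87 to 13.6 CPM (median 10.6) in MetR_CE. Each of the 3 other groups stood above Ctrl_RT in every library. The diet raised it by 0.76 ± 0.12, adjusted p = 2.39e-05, cold by 0.54 ± 0.12, adjusted p = 0.000817 and both by 0.64 ± 0.12, adjusted p = 8.84e-05. MetR_CE against MetR_RT gave -0.12 ± 0.11, adjusted p = 0.56. The interaction was -0.65 ± 0.16, adjusted p = 0.0369, the 1 called interaction of the 9 genes in Liver beside 1.76% of genes called there. With the replicate number as a block the interaction was -0.64 and did not pass.

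Ppard (chr17:28232700-28301474, plus strand), the most widely expressed of the 3 PPARs, rose in iBAT with cold and fell in Liver. In iBAT it was at 42.9 to 48.6 CPM (median 46.5) in Ctrl_RT and 41.7 to 53.2 CPM (median 44.6) in MetR_RT. Under cold, Ppard was at 50.8 to 63.1 CPM (median 59.4) in Ctrl_CE and 46.1 to 57.1 CPM (median 50.6) in MetR_CE. Ctrl_CE did not overlap Ctrl_RT, and cold raised the gene 1.23-fold (0.29 ± 0.06, adjusted p = 0.000318), with 0.14 ± 0.06, adjusted p = 0.065 for both stresses, which did not pass. The latter passed under 4 settings, at 0.16 to 0.17: RLE size factors, a stricter count filter, DESeq2 and only the groups compared in the fit. It was the 1 gene of the 9 tested in Liver that fell. Its levels there were 13.3 to 49.1 CPM (median 16.8) in Ctrl_RT and 11 to 25.1 CPM (median 12.7) in MetR_RT. Under cold, Ppard was at 12.5 to 16.8 CPM (median 13.9) in Ctrl_CE and 10.5 to 15.5 CPM (median 11) in MetR_CE. The changes were -0.64 ± 0.22, adjusted p = 0.0371 with the diet, -0.61 ± 0.22, adjusted p = 0.0332 with cold and -0.89 ± 0.22, adjusted p = 0.00238 with both. Ctrl_RT replicate 1 stood at 49.1 CPM, above the other 6 at 13.3 to 24.8 CPM, and without it the changes were -0.31, -0.27 and -0.55, of which the first 2 did not pass. These also did not pass with the replicate block (-0.57 and -0.54) or with only the groups compared in the fit (-0.64 and -0.61). In iWAT the gene lay between 25.6 and 47.2 CPM and in eWAT between 30.8 and 51 CPM over all groups, with no called change.

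Esrra (chr19:6910977-6921813, minus strand), the oestrogen-related receptor that PGC-1alpha partners with on respiratory chain genes, had the smallest adjusted p of the 10 with cold in iBAT. There it was at 268.8 to 319 CPM (median 310.1) in Ctrl_RT and 302 to 353 CPM (median 318) in MetR_RT. Under cold, Esrra was at 476 to 567 CPM (median 544) in Ctrl_CE and 446 to 569.9 CPM (median 496) in MetR_CE. The cold and room temperature libraries did not overlap on either diet, and cold gave 0.77 ± 0.06, adjusted p = 1.05e-11 on the control and 0.60 ± 0.05, adjusted p = 1.02e-09 on the restricted diet, that is 1.70-fold and 1.51-fold. In iWAT it was at 70.6 to 113 CPM (median 83.6) in Ctrl_RT and 97.9 to 218 CPM (median 146) in MetR_RT. Under cold, Esrra was at 132 to 269.7 CPM (median 194) in Ctrl_CE and 178 to 290.8 CPM (median 223) in MetR_CE. The diet raised it 1.91-fold (0.93 ± 0.17, adjusted p = 0.000309), cold 2.41-fold (1.27 ± 0.17, adjusted p = 5.97e-06) and both 2.63-fold (1.39 ± 0.18, adjusted p = 1.03e-06). The interaction of -0.81 ± 0.25, adjusted p = 0.0669 did not pass in edgeR but did in DESeq2, at -0.84. In Liver it rose from 47.1 to 66.5 CPM (median 56.9) in Ctrl_RT to 62.2 to 91.8 CPM (median 80.8) in Ctrl_CE (0.42 ± 0.09, adjusted p = 0.000338) and 76.1 to 97.1 CPM (median 86) in MetR_CE (0.57 ± 0.09, adjusted p = 4.55e-06), with 0.22 ± 0.09, adjusted p = 0.0677 for the diet. In eWAT the 4 Ctrl_RT libraries held 84.3, 66.7, 57.5 and 66.8 CPM and Ctrl_CE 76.7 to 109 CPM (median 96.6), a difference of 0.45 ± 0.15, adjusted p = 0.0778. It passed in DESeq2, at 0.47, and with all libraries, at 0.48.

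Esrrg (chr1:187608791-188214885, plus strand), its relative of oxidative muscle, heart and brown fat, had the largest fold changes in iWAT, from very low levels. It was at 0.234 to 1.78 CPM (median 1.04) in Ctrl_RT and 1.62 to 10.3 CPM (median 5.20) in MetR_RT. Under cold, Esrrg was at 1.99 to 14.3 CPM (median 6.45) in Ctrl_CE and 6.53 to 20.05 CPM (median 10.7) in MetR_CE. Both cold groups stood above Ctrl_RT in every library, and MetR_RT overlapped it. The diet gave 2.44 ± 0.46, adjusted p = 0.000368, cold 2.74 ± 0.46, adjusted p = 6.99e-05 and both 3.47 ± 0.48, adjusted p = 2.43e-06, which is 5.44-fold, 6.67-fold and 11.1-fold. In iBAT, where the level was far higher, it was at 22.1 to 31.7 CPM (median 25.6) in Ctrl_RT and 24.2 to 29.2 CPM (median 26.5) in MetR_RT. Under cold, Esrrg was at 34.8 to 48.7 CPM (median 37.9) in Ctrl_CE and 34.7 to 42.2 CPM (median 39.6) in MetR_CE, with no overlap of cold and room temperature. Cold raised it 1.43-fold (0.52 ± 0.09, adjusted p = 1.82e-05) and both raised it 1.45-fold (0.54 ± 0.08, adjusted p = 7.4e-06). In Liver it was at 1.14 to 2.72 CPM (median 1.67) in Ctrl_RT, 3.02 to 7.16 CPM (median 5.09) in Ctrl_CE and 4.06 to 8.51 CPM (median 5.37) in MetR_CE, a rise of 1.5 ± 0.23, adjusted p = 1.02e-05 and 1.81 ± 0.23, adjusted p = 3.32e-07 without overlap, beside 0.52 ± 0.24, adjusted p = 0.14 for the diet. In eWAT 1 of the 4 Ctrl_RT libraries, replicate 6, stood at 6.01 CPM while the other 3 were at 0.403 to 0.505 CPM, and the cold difference went from 0.68 ± 0.76, adjusted p = 0.727 to 2.74 without that library, which passed. The sum of 5 keratinocyte and mammary epithelium markers was 153.7 CPM in that library and 3.88 to 23.1 CPM in the other 3. Of the other eWAT libraries, those with the most Esrrg were Ctrl_CE replicate 2 (7.26 CPM), MetR_CE replicate 4 (5.18 CPM) and Ctrl_CE replicate 1 (4.72 CPM), with marker sums of 150.9, 115.0 and 75.9 CPM. The part of these cells in the Esrrg level was not tested.

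Prdm16 (chr4:154316125-154636873, minus strand), the zinc-finger factor that sets brown against muscle identity and drives beige fat, rose in iWAT with either stress and did not pass in iBAT or eWAT. In iWAT it was at 9.62 to 22.9 CPM (median 16.5) in Ctrl_RT and 17.3 to 29.6 CPM (median 25.1) in MetR_RT. Under cold, Prdm16 was at 14.8 to 32.3 CPM (median 22.6) in Ctrl_CE and 23.7 to 37.4 CPM (median 29.5) in MetR_CE, and MetR_CE alone stood clear of Ctrl_RT. The changes were 0.59 ± 0.18, adjusted p = 0.0158, 0.55 ± 0.18, adjusted p = 0.0196 and 0.88 ± 0.18, adjusted p = 0.000369 with diet, cold and both. In iBAT it was at 50.2 to 79.4 CPM (median 64.5) in Ctrl_RT and 48.2 to 69.5 CPM (median 55.3) in MetR_RT. Under cold, Prdm16 was at 57.2 to 71.8 CPM (median 61.8) in Ctrl_CE and 48.8 to 69.3 CPM (median 54.9) in MetR_CE, with -0.21 ± 0.09, adjusted p = 0.078 for both stresses. In eWAT every library was between 5.37 and 10.2 CPM. In Liver it was close to the limit of detection, 0.163 to 0.617 CPM (median 0.434) in Ctrl_RT and 0.607 to 1.28 CPM (median 0.928) in Ctrl_CE, and cold gave 1.02 ± 0.29, adjusted p = 0.0073.

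Ebf2 (chr14:67233292-67430918, plus strand), which marks brown and beige precursors and opens the chromatin of brown fat genes, was the 1 gene of the 10 whose called change in eWAT was a fall. The 4 eWAT Ctrl_RT libraries held 36.9, 47.9, 39 and 33.9 CPM, MetR_RT 30.03 to 43.5 CPM (median 39), Ctrl_CE 22.4 to 31.9 CPM (median 26.4) and MetR_CE 32 to 41.8 CPM (median 37.6). Ctrl_CE lay below every library of Ctrl_RT and of MetR_CE. Cold on the control diet gave -0.55 ± 0.11, adjusted p = 0.00614, cold on the restricted diet 0.00 ± 0.10, adjusted p = 0.997, and the interaction was 0.55 ± 0.15, adjusted p = 0.0458, beside 3.07% of genes called in that test. MetR_CE stood above Ctrl_CE by 0.49 ± 0.10, adjusted p = 0.00215, a comparison in which 11.5% of genes were called. The 4 Ctrl_RT libraries are in neither group compared, but the test shares its estimate of the spread with them. With only the groups compared in the fit the difference was 0.485 and still passed. Ctrl_CE against MetR_RT gave -0.48 ± 0.10, adjusted p = 0.0113. The call of the interaction was lost on leaving out any 1 of the 4 Ctrl_RT libraries (replicates 1, 3, 6 and 7), with values from 0.44 to 0.61, and the cold call was not. With all libraries, the excluded ones among them, none of these 4 calls held: the cold change was -0.22, the interaction 0.33, MetR_CE against Ctrl_CE 0.499 and Ctrl_CE against MetR_RT -0.39. In iBAT the level was 48.2 to 103 CPM (median 74.5) in Ctrl_RT and 80.6 to 98.2 CPM (median 94.6) in Ctrl_CE, a difference of 0.28 ± 0.11, adjusted p = 0.0543 that did not pass, while Ctrl_CE stood above MetR_RT in every library (0.31 ± 0.11, adjusted p = 0.0276). The first of these did pass under 5 of the settings tried, at 0.29 to 0.33: RLE size factors, a stricter count filter, the replicate block, DESeq2 and all libraries. It also passed without Ctrl_CE replicate 4, at 0.32. The second did not pass with the 3 tagged libraries grouped by tag, at 0.18, or left out, at 0.31. In iWAT the groups lay between 29.5 and 50.4 CPM with no called change.

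Irf4 (chr13:30749226-30766976, plus strand) is a fasting-induced regulator of lipolysis and thermogenic genes in fat cells and is also a factor of lymphocytes and macrophages. It was the 1 gene of the 10 that fell in iBAT. There it was at 15 to 45.5 CPM (median 23.8) in Ctrl_RT and 11.4 to 24.7 CPM (median 14.6) in MetR_RT. Under cold, Irf4 was at 5.43 to 28.9 CPM (median 7.35) in Ctrl_CE and 6.93 to 17.3 CPM (median 12.1) in MetR_CE. The changes were -1.34 ± 0.32, adjusted p = 0.00156 with cold, -0.70 ± 0.30, adjusted p = 0.172 with the diet and -1.11 ± 0.31, adjusted p = 0.00538 with both. In iWAT it was at 13.8 to 28.7 CPM (median 20.6) in Ctrl_RT and 9.66 to 21.3 CPM (median 13.3) in MetR_RT. Under cold, Irf4 was at 6.04 to 53.4 CPM (median 10.7) in Ctrl_CE and 4.79 to 15.5 CPM (median 8.89) in MetR_CE. It fell with both stresses (-1.13 ± 0.36, adjusted p = 0.0148) but not by the test with cold (-0.21 ± 0.34, adjusted p = 0.686) or diet (-0.45 ± 0.34, adjusted p = 0.382). A single mouse decided part of this. Ctrl_CE replicate 4, the same mouse in all tissues by its label, was at 28.9 CPM in iBAT, 53.4 CPM in iWAT and 30.8 CPM in eWAT, while the other Ctrl_CE libraries ended at 8.10, 21.5 and 8.63 CPM. Summed lymphocyte markers (6 genes) in these 3 libraries were 1.38, 1.36 and 9.89 CPM, against ranges over the whole Ctrl_CE group of 1.38 to 6.79 CPM, 1.36 to 4.14 CPM and 2.96 to 9.89 CPM. The same mouse stood apart for Cyp2e1, the gene that carries the summed hepatocyte markers in fat: their sum was 55.0 CPM in iBAT beside at most 12.4 CPM in the rest of Ctrl_CE, 1516 CPM beside at most 461 CPM in iWAT, and 3139 CPM beside at most 1184 CPM in eWAT. These sums lay within the range of Ctrl_RT, which was 51.9 to 147 CPM, 649 to 2295 CPM and 2647 to 5285 CPM.

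Without the libraries of this mouse, an alternative added after the data were seen, the log2 fold change of Irf4 in iBAT was -1.94 with cold, -0.70 with the diet and -1.11 with both, and all 3 passed. The iBAT interaction was then 1.53, and MetR_CE stood above Ctrl_CE by 0.83, both called. In iWAT the cold change became -0.79 and passed. Ctrl_RT replicate 4 of iBAT was high too, at 45.5 CPM beside 15 to 24.5 CPM in the other 5, and without it the iBAT changes were -1.10 with cold and -0.87 with both. In eWAT the 4 Ctrl_RT libraries held 12, 8.33, 5.79 and 7.35 CPM, with no called change, and in Liver no library passed 1.01 CPM.

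**Figure D3:**
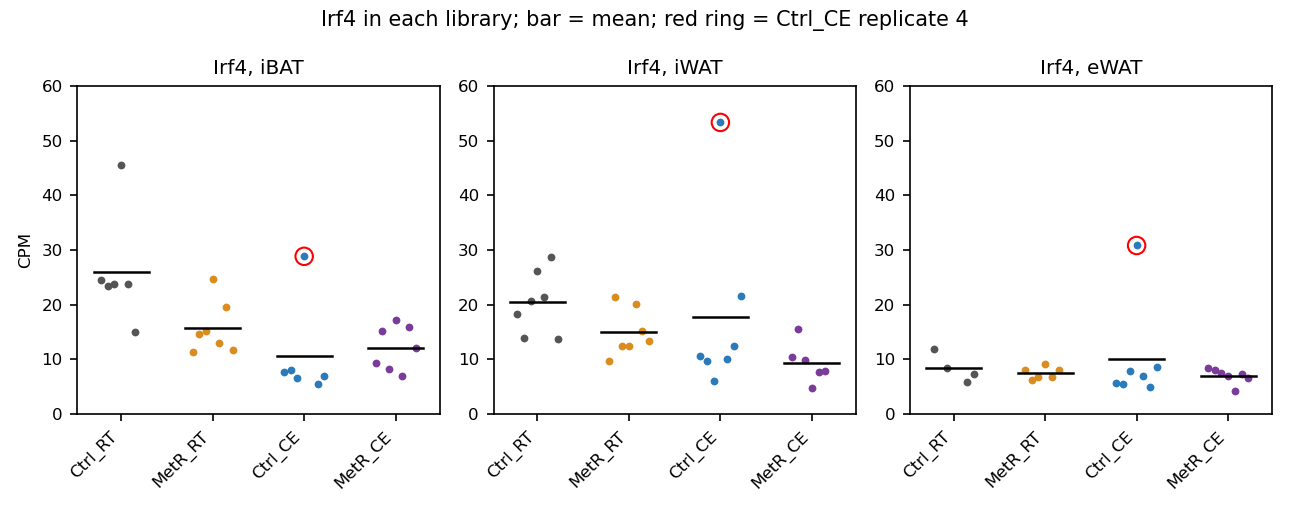
Irf4 level in each library of iBAT, iWAT and eWAT, in CPM on a linear axis from 0, a column of points per group with a bar at the group mean; a red ring marks the libraries of the Ctrl_CE mouse replicate 4. The ringed libraries stand at 28.9, 53.4 and 30.8 CPM, the highest of their groups, and the other iBAT cold libraries on the control diet lie at 5.43 to 8.10 CPM.

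Whether the diet changed the cold response was tested by the interaction in each tissue. It was called for 1 of 9 genes in Liver (Pparg), 0 of 10 in iBAT, 0 of 10 in iWAT and 1 of 10 in eWAT (Ebf2), beside 1.76%, 0.903%, 2.95% and 3.07% of all genes. In iWAT all 10 interactions were negative, with -0.99 for Ppargc1a, -1.08 for Ppargc1b, -1.17 for Ppara, -0.81 for Esrra, -1.71 for Esrrg and -0.08 for Ppard among them. In edgeR 6 of them had an unadjusted p under 0.05. DESeq2 called Esrra and Esrrg there. The median of the 10 in iWAT was -0.64, beside 0.04 over all genes. These 10 values rest on the same libraries, so they are not independent of each other. The share of all genes with a negative interaction was not counted. Nor was the share with an unadjusted p under 0.05, in this or any other comparison, so counts by unadjusted p have no background beside them. In iBAT 3 interactions (Ppard, Esrra and Irf4) had an unadjusted p under 0.05 and DESeq2 called 0. Methionine restriction in the cold (MetR_CE against Ctrl_CE) changed Ppargc1b in Liver and Ebf2 in eWAT and no other gene of the 10. In iBAT and iWAT it called 0 of 10 in edgeR, beside 4.78% and 3.37% of genes, where 2 genes of iBAT (Ppard and Ebf2) and 1 of iWAT (Irf4) had an unadjusted p under 0.05. DESeq2 called Ebf2 in iBAT at -0.33 and 0 in iWAT. Cold on the restricted diet (MetR_CE against MetR_RT) called 5 of 9 genes in Liver (18% of all genes), 4 of 10 in iBAT (25.5%), 1 of 10 in iWAT and 0 of 10 in eWAT (0.223%), where DESeq2 and an unadjusted p under 0.05 gave 0 as well. The comparison of the single stresses (Ctrl_CE against MetR_RT) called 4 of 9 in Liver (29.4%), 5 of 10 in iBAT (31.2%), 1 of 10 in iWAT and 1 of 10 in eWAT (2.75%).

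The 3 fat depots were then compared directly, by testing the difference between their responses in a joint fit of 2 depots. The same mice gave both depots, and a fit with the mouse as a random block took the count for iWAT against eWAT with the diet from 1 to 0. For single genes that fit gained 3 calls and lost 1. Between iWAT and iBAT, 5 of 10 genes differed in their response to cold (17% of 28303 genes), 6 in their response to the diet (8.3%) and 6 in their response to both (20.4%), and every called difference was a larger rise in iWAT. Esrrg differed by 2.22 ± 0.46, adjusted p = 0.000322 with cold and by 2.45 ± 0.45, adjusted p = 0.000461 with the diet on the log2 scale. Ppara differed by 1.56 ± 0.44, adjusted p = 0.00851 and 1.78 ± 0.43, adjusted p = 0.00519, and Ppargc1b by 1.39 ± 0.35, adjusted p = 0.00267 and 1.15 ± 0.34, adjusted p = 0.0235. Prdm16 and Pparg differed less, by 0.61 ± 0.21, adjusted p = 0.0348 and 0.54 ± 0.15, adjusted p = 0.00901 with cold, and Prdm16 did not pass without the mouse Ctrl_CE replicate 4, at 0.57. Ppargc1a was not among them: its cold responses in the 2 depots differed by 0.28 ± 0.38, adjusted p = 0.704 and its diet responses by 1.12 ± 0.38, adjusted p = 0.0564, which passed without that mouse, at 1.12. Esrra differed with the diet (0.84 ± 0.19, adjusted p = 0.00274) but not by the test with cold (0.51 ± 0.19, adjusted p = 0.0601).

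Between iWAT and eWAT, 3 genes differed with cold (5.05% of 30236 genes), 1 with the diet (3.21%) and 4 with both (15.5%). Ppargc1a rose more in iWAT than in eWAT by 2.11 ± 0.45, adjusted p = 0.00519 with cold and 2.84 ± 0.45, adjusted p = 2.2e-05 with both, and Esrra by 0.83 ± 0.24, adjusted p = 0.0306 and 1.23 ± 0.24, adjusted p = 0.000212. The diet responses of Ppargc1a differed by 1.21 ± 0.46, adjusted p = 0.14, which did not pass. The called diet difference was Esrrg (3.41 ± 0.88, adjusted p = 0.0231), and it rested on eWAT Ctrl_RT replicate 6, without which it was 1.36 and not called. The same held for Esrrg with both, which went from 3.4 ± 0.85, adjusted p = 0.00353, to 1.38. The Esrra difference with cold was not called without the mouse Ctrl_CE replicate 4 (0.75) or eWAT Ctrl_RT replicate 1 (0.71) or 7 (0.85). Ebf2 differed with cold by 0.49 ± 0.14, adjusted p = 0.0287, and not by the test without the same mouse (0.44) or eWAT Ctrl_RT replicate 3 (0.38), and Prdm16 with both by 0.78 ± 0.25, adjusted p = 0.0247, and not without that replicate (0.75). Between iBAT and eWAT, 3 genes differed with cold (8.84% of 29528 genes), 1 with the diet (0.176%) and 3 with both (11.1%). Ppargc1a differed there by 1.82 ± 0.37, adjusted p = 0.000493 with cold, Ebf2 by 0.83 ± 0.16, adjusted p = 0.000411 and Irf4 by -1.59 ± 0.51, adjusted p = 0.0414, a call that was lost without eWAT Ctrl_RT replicate 3, 6 or 7, at -1.59 to -1.45. Esrrg became called there with cold without eWAT Ctrl_RT replicate 6, at -2.23, from -0.13 ± 0.64, adjusted p = 1. With both, Ppargc1a differed by 2.28 ± 0.36, adjusted p = 1.11e-05, Esrra by 0.53 ± 0.15, adjusted p = 0.0146, not called without eWAT Ctrl_RT replicate 1 (0.42), and Pparg by -0.40 ± 0.14, adjusted p = 0.0489, not called without replicate 6 (-0.25) or 7 (-0.38). With the diet Pparg differed by -0.61 ± 0.14, adjusted p = 0.0494, and that call was lost on leaving out any of 3 eWAT Ctrl_RT libraries (replicates 1, 6 and 7).

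**Figure D4:**
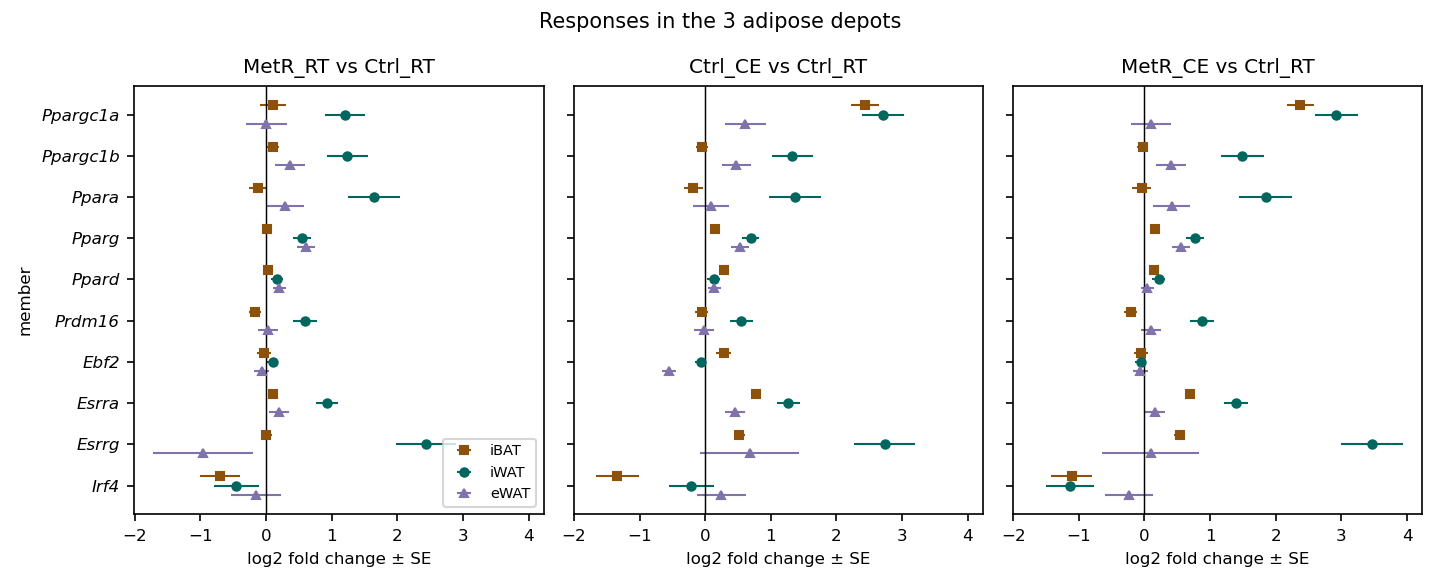
Log2 fold change against Ctrl_RT with its standard error for each of the 10 genes in iBAT (squares), iWAT (circles) and eWAT (triangles), with a panel each for MetR_RT, Ctrl_CE and MetR_CE. In the MetR_RT panel the iBAT squares lie between -0.70 and 0.11, while 7 of the 10 iWAT circles lie above 0.5.

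The iWAT changes went with other changes in the tissue's RNA, whose part in the regulators' levels was not tested. Summed levels of 5 brown fat markers (Ucp1, Cidea, Cox8b, Otop1 and Cpn2) in iWAT were 78.9 to 778 CPM in Ctrl_RT, 426 to 4406 CPM in MetR_RT, 730.0 to 5041 CPM in Ctrl_CE and 2707 to 6436 CPM in MetR_CE. All 5 genes rose in each of the 3 comparisons, with medians of 2.02 with cold, 1.89 with the diet and 2.21 with both. Among libraries with like marker sums, MetR_RT replicates 1, 4 and 6, with sums of 4237 to 4406 CPM, held 23.5 to 29.8 CPM of Ppargc1a. The cold libraries in that range were MetR_CE replicates 3 and 6, at 4377 and 4260 CPM, which held 54.1 and 47.99 CPM of Ppargc1a. No Ctrl_CE library had a sum in that range. This is a description of single libraries and was not tested. Macrophage markers moved the other way, with 5 of 5 lower in all 3 comparisons. Their sums were 725 to 1331 CPM in Ctrl_RT, 153 to 669 CPM in MetR_RT, 186 to 905 CPM in Ctrl_CE and 119 to 284.3 CPM in MetR_CE. The 5 hepatocyte markers were carried in fat by Cyp2e1, with medians of 391 CPM in iWAT, 751 CPM in eWAT and 12.4 CPM in iBAT, while Apoa1 and Ttr had medians of 0.171 and 0.0444 CPM in iWAT and Alb 46.1 CPM. The sum of the 5, which is thus mostly Cyp2e1, was 649 to 2295 CPM in Ctrl_RT and 158 to 1516 CPM in the other groups of iWAT, 2647 to 5285 CPM and 199 to 3139 CPM in eWAT, and 51.9 to 147 CPM and 3.64 to 55.0 CPM in iBAT. Skeletal muscle markers, the muscle being a tissue that also holds Ppargc1a, Esrra and Esrrg, were uneven in iWAT, with sums over 6 genes of 1.69 to 4505 CPM (median 125.9) in Ctrl_RT and 77.8 to 17397 CPM (median 598) in MetR_RT. In the cold groups they were 4.11 to 1027 CPM (median 166) in Ctrl_CE and 10.4 to 3737 CPM (median 793) in MetR_CE. Without the library with the highest sum, MetR_RT replicate 6, no count of called genes in iWAT changed, and the other libraries with high sums were not left out. Summed endothelial markers lay between 242.6 and 746 CPM and summed neuron and Schwann cell markers between 22.7 and 233 CPM over the iWAT libraries, with group ranges that overlapped. In eWAT the brown markers summed to at most 31.3 CPM, and epididymal epithelium markers to at most 1012 CPM, in MetR_RT replicate 2.

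**Figure D5:**
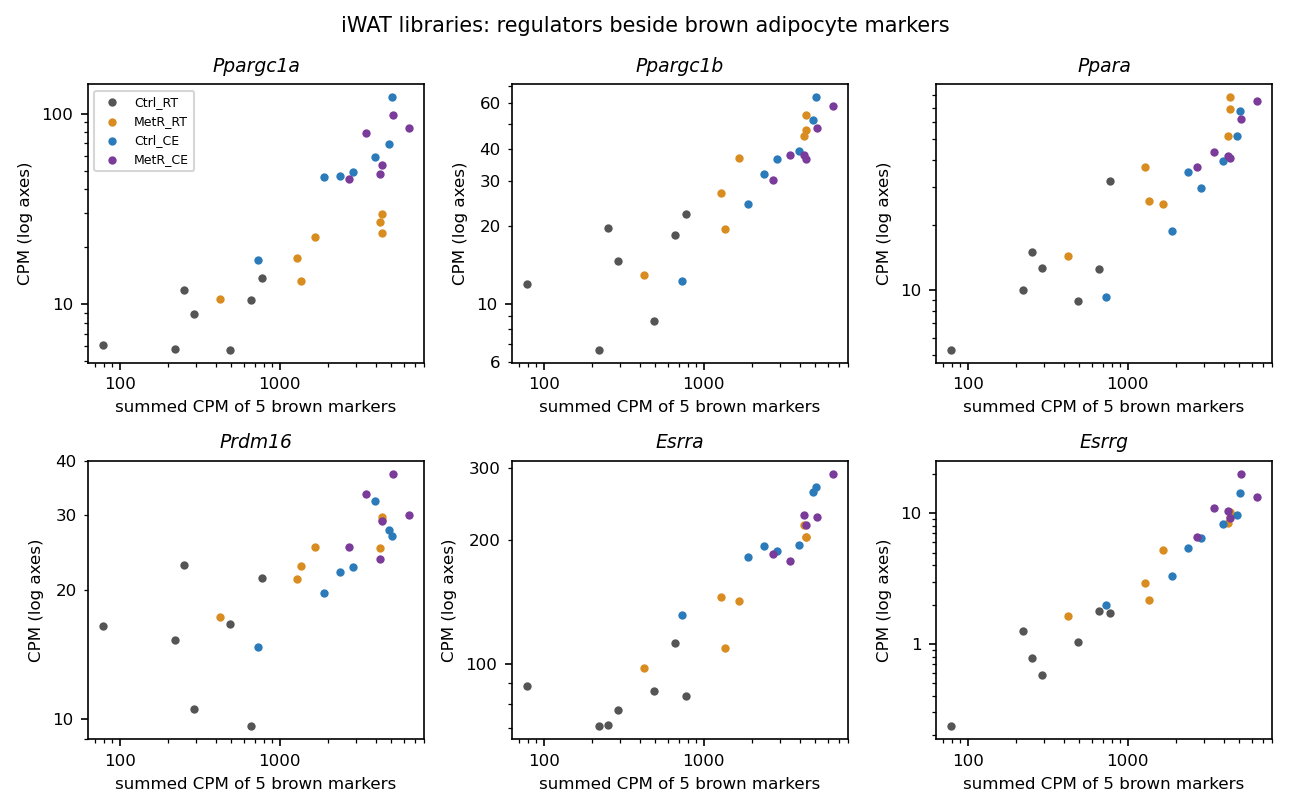
Levels of Ppargc1a, Ppargc1b, Ppara, Prdm16, Esrra and Esrrg (CPM) against the summed CPM of 5 brown fat markers in the 27 iWAT libraries, both on log axes, with a point per library coloured by group. Over all groups together the 6 genes tend to be higher where the marker sum is higher, which was not tested. Within Ctrl_RT, Prdm16 is at 9.62 CPM in replicate 5 (sum 664 CPM) and 16.5 CPM in replicate 2 (sum 78.9 CPM). At sums of 4237 to 4406 CPM, 3 MetR_RT libraries hold 23.5 to 29.8 CPM of Ppargc1a. MetR_CE replicates 3 and 6, in the same range, hold 54.1 and 47.99 CPM.

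Genes that these regulators are known to control were followed next, in lists of known targets. Counts are read against the shares of all genes that rose and fell, in the order cold, diet and both. In iWAT 14.6%, 11% and 17.2% rose and 16.2%, 11.5% and 19.9% fell. In iBAT 15.3%, 2.9% and 15% rose and 17.9%, 3.9% and 18.5% fell. In Liver 14.7%, 10.1% and 15.2% rose and 14.2%, 8.7% and 15.2% fell, and in eWAT 2.11%, 0.036% and 1.48% rose and 3.16%, 0.112% and 1.22% fell. In iWAT, 7 of 7 thermogenic genes rose in each comparison, with median log2 fold changes of 2.02, 2.31 and 3.19. With cold the smallest adjusted p were those of Dio2, which makes active thyroid hormone (4.93 ± 0.56, adjusted p = 6.54e-07), Elovl3, a fatty acid elongase (3.4 ± 0.61, adjusted p = 0.000134), and Ucp1 (4.08 ± 0.75, adjusted p = 0.000163). With the diet they were Cox7a1 (2.91 ± 0.43, adjusted p = 5.95e-05), Cox8b (1.41 ± 0.26, adjusted p = 0.000298) and Ucp1 (3.61 ± 0.73, adjusted p = 0.000683). In iBAT 3 of these 7 rose and 1 fell with cold, led by Elovl3 (2.18 ± 0.13, adjusted p = 4.94e-13) and Ucp1 (0.86 ± 0.08, adjusted p = 1.04e-09). With the diet 3 rose and 2 fell, led by Elovl3 (0.85 ± 0.13, adjusted p = 7.5e-05). In eWAT 2 of 7 rose with cold, Dio2 and Elovl3, and 0 with the diet. In Liver 3 of the 7 could be tested, and Elovl3 fell in each comparison (-1.37 ± 0.52, adjusted p = 0.0483 with cold).

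Of 10 targets of the oestrogen-related receptors, enzymes of the citric acid cycle and respiratory chain for the most part, 9 rose and 0 fell in iWAT in each comparison, with medians of 0.92, 1.15 and 1.27. Citrate synthase (Cs) led them, at 1.27 ± 0.17, adjusted p = 4.94e-06 with cold and 1.2 ± 0.17, adjusted p = 4.19e-05 with the diet. It was followed with cold by Idh3a (1.49 ± 0.20, adjusted p = 6.63e-06) and the mitochondrial fusion gene Mfn2 (0.77 ± 0.11, adjusted p = 8.17e-06). In Liver 7 of 9 rose with cold, 3 with the diet and 7 with both, none fell, and the median with cold was 0.28. In iBAT 5 rose and 2 fell with cold (median 0.10), 2 rose with the diet and 5 rose and 1 fell with both. In eWAT 0 of 10 were called in any of the 3 comparisons.

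Of 18 targets of PPARalpha and PPARdelta, genes of fatty acid oxidation and ketone synthesis, 10 rose and 0 fell in Liver with cold (median 0.45), 4 rose and 2 fell with the diet (-0.06) and 11 rose and 0 fell with both (0.38). With cold they were led by the acyl-CoA thioesterase Acot2 (1.89 ± 0.28, adjusted p = 5.72e-06), the carnitine acyltransferase Cpt1a (0.71 ± 0.13, adjusted p = 0.000109) and Ehhadh (0.87 ± 0.22, adjusted p = 0.0033). In iWAT 9 rose and 3 fell with cold (1.18), 9 rose and 2 fell with the diet (1.07) and 12 rose and 1 fell with both (1.36). The muscle-type carnitine acyltransferase Cpt1b was at 2.68 ± 0.46, adjusted p = 7.69e-05 with cold and 2.53 ± 0.45, adjusted p = 0.000249 with the diet. In iBAT the list split, with 6 rising and 5 falling with cold. In eWAT 1 rose and 4 fell with cold and Ehhadh alone fell with the diet (-1.07 ± 0.16, adjusted p = 0.00196). Of 10 PPARgamma targets of fat cells, 7 rose and 2 fell in iBAT with cold, led by lipoprotein lipase, Lpl (1.28 ± 0.12, adjusted p = 8.08e-10). Their iWAT counts were 5 rises with cold, 5 with the diet and 8 with both, none fell, and Acsl1, an acyl-CoA synthetase, led each (1.22 ± 0.12, adjusted p = 6.45e-08 with both). In Liver 3 rose and 1 fell with cold, led by the fatty acid transporter Cd36 (1.24 ± 0.17, adjusted p = 1.92e-06). In eWAT 1 rose and 3 fell with cold, led by Pck1 (-1.55 ± 0.30, adjusted p = 0.00467), and 0 were called with the diet.

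The partners through which the 10 proteins act were followed as well, beside 14.2%, 17.9% and 16.2% of all genes that fell with cold in Liver, iBAT and iWAT. Of 7 receptor partners, 2, 3 and 5 rose and 0 fell in iWAT with cold, diet and both, led with cold by the retinoid X receptor Rxrg (0.52 ± 0.14, adjusted p = 0.00505). In Liver 1 rose and 4 fell with cold and in iBAT 2 rose and 4 fell, led by the liver X receptor Nr1h3 (0.30 ± 0.05, adjusted p = 4.1e-06). Of 27 other coactivators and brown fat factors, 12 rose and 1 fell in iBAT with cold, among them Perm1, a muscle regulator downstream of PGC-1 and oestrogen-related receptors (1.35 ± 0.11, adjusted p = 9.19e-11), and Ncoa1 (0.75 ± 0.07, adjusted p = 2.99e-09). In iWAT 8, 7 and 11 of these rose and 2 fell in each comparison, led with cold by Zbtb7b (0.62 ± 0.09, adjusted p = 6.97e-06). In Liver 7 of 25 tested rose and 2 fell with cold. The third PGC-1 family member, Pprc1, was the 1 gene of the list called in iBAT with the diet (-0.43 ± 0.09, adjusted p = 0.00374) and led the list in iWAT with the diet (-0.67 ± 0.11, adjusted p = 0.000147). In eWAT the coactivator list gave 1 rise with cold (Zbtb7b), 0 with the diet and 1 with both (Ncoa2), and the partners 0 throughout. Of 12 corepressors and restraints of the brown programme, 3 rose and 4 fell in iWAT with cold. Twist1, which represses PGC-1alpha targets, fell there with cold (-0.36 ± 0.08, adjusted p = 0.000661), diet (-0.24 ± 0.08, adjusted p = 0.0221) and both (-0.48 ± 0.08, adjusted p = 2.43e-05), and in iBAT with cold (-0.52 ± 0.08, adjusted p = 4.29e-06).

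The corepressor list also gave 3 rises in Liver with cold, 3 falls in iBAT with cold and a fall of Ncor1 in eWAT with cold (-0.43 ± 0.09, adjusted p = 0.00919). Of 11 mitochondrial biogenesis factors, 4 rose and 1 fell in iWAT with cold, 4 rose with the diet and 5 with both, with medians of 0.11, 0.22 and 0.11. Tfam, which packages and transcribes mitochondrial DNA, was at 0.47 ± 0.09, adjusted p = 0.000554 with the diet in iWAT and at 0.47 ± 0.06, adjusted p = 8.3e-07 with cold in iBAT, where 2 of 11 rose and 1 fell. In Liver 2 rose and 2 fell with cold and 4 rose with the diet, led by Gabpa (0.33 ± 0.06, adjusted p = 0.000118). In eWAT 1 fell with cold (Gabpa) and 0 were called with the diet. Of 10 relatives of Irf4, Esrra, Ebf2 and Prdm16, most of them interferon regulatory factors of immune cells, 2 rose and 5 fell in iWAT with cold. With the diet 1 rose and 6 fell there, led by Irf5 (-1.68 ± 0.29, adjusted p = 0.000167) and Irf7 (-1.63 ± 0.30, adjusted p = 0.000319). In iBAT 1 rose and 4 fell with cold, led by Esrrb (1.35 ± 0.18, adjusted p = 5.27e-07). In Liver 2 rose and 5 fell, and in eWAT 1 rose and 1 fell, Irf8 (0.86 ± 0.20, adjusted p = 0.0149) and Irf2 (-0.61 ± 0.12, adjusted p = 0.00477). The macrophage marker sums of iWAT given above were lower in the same comparisons, and their part in these counts was not tested.

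The genes whose levels followed each regulator most closely were found by Pearson's r of log2 CPM over the libraries of a tissue. This is a description with no test, since the libraries share their groups, depth and tissue makeup. Over 27 iWAT libraries and 13530 genes with a mean of at least 1 CPM, Ppargc1a went closest with Tomm70a, Hccs and Gmps (r = 0.974, 0.973 and 0.969). Tomm70a and Hccs encode a mitochondrial import receptor and the enzyme that attaches haem to cytochrome c. Ppargc1b in iWAT went with Sirt3, Coa5 and Afg3l2 (r = 0.949, 0.948 and 0.940). Ppara went with Acadm, Acat1 and Etfdh (r = 0.960, 0.951 and 0.949), which act in fatty acid and ketone oxidation. Esrra went with Ppif, Atad3a and Oxa1l (r = 0.987, 0.986 and 0.985). Esrrg there went with Plin5, Cpt1b and Idh3a (r = 0.979, 0.974 and 0.972), of which Plin5 and Cpt1b serve lipid droplets and fatty acid entry in oxidative cells. Pparg went with Spred2, Ctnnb1 and Trak1 (r = 0.889, 0.886 and 0.882). Prdm16 went with Rnf44, Ctcflos and Mprip (r = 0.938, 0.934 and 0.923). Over 26 iBAT libraries and 12778 genes, Ppargc1a went with Ncoa1, Tbc1d9 and Tent4b (r = 0.968, 0.963 and 0.961), where Ncoa1 is a nuclear receptor coactivator. Esrrg in iBAT went with Mmgt1, Idh3a and Bpnt1 (r = 0.922, 0.917 and 0.916), where Idh3a is a citric acid cycle enzyme that also stood beside Esrrg in iWAT. Esrra went there with March5, Dnajc11 and Atg4d (r = 0.985, 0.983 and 0.983) and Pparg with Rgcc, Lpin1 and Emc6 (r = 0.877, 0.850 and 0.831). Ppard in iBAT went with Mfge8, Grwd1 and Mtx1 (r = 0.843, 0.842 and 0.837) and Irf4 with 0610030E20Rik, Bcl7a and St6galnac2 (r = 0.849, 0.832 and 0.828).

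Over 28 Liver libraries and 12771 genes, Ppara went closest with Rab43, Lrp4 and Narf (r = 0.958, 0.950 and 0.939) and Ppargc1b with Sap130, Dnmt3a and Npc1 (r = 0.911, 0.890 and 0.886). Ppargc1a in Liver went with Akap13, Ubn1 and Tjp1 (r = 0.877, 0.866 and 0.862). Esrra in Liver went with Cdc42bpg, Wee1 and Abhd15 (r = 0.892, 0.883 and 0.880) and Esrrg with Gm45909, Ppp1r16b and Gpr182 (r = 0.921, 0.906 and 0.903). Pparg in Liver went with Cyp2c54, Akr1c19 and Sord (r = 0.874, 0.857 and 0.855). Prdm16 was under the minimum level there. Over 24 eWAT libraries and 13785 genes, Pparg went with Cmklr1, Gm12002 and Cxcr4 (r = 0.897, 0.875 and 0.864) and Ebf2 with Foxj2, Ing5 and Zrsr1 (r = 0.899, 0.858 and 0.840). The closest genes of a regulator differed between tissues, with Idh3a of Esrrg the 1 gene found in more than 1 tissue.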

How the data were processed

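Gene counts of 110 libraries were taken from 3 deposited tables of raw counts with 56884 genes each, of which 51948 had a symbol. Per the labels and the study's methods, the authors made the libraries from poly(A) RNA, sequenced paired ends and aligned reads to mm10 with STAR 2.7.9a. They counted reads with featureCounts 2.0.3 and in parallel estimated counts with Salmon 1.9.0. The deposited tables carry Salmon in their names, and beyond that the sources used here do not settle which of these counts they hold. The authors' processing notes also name DESeq2 1.46.0 and MultiQC 1.19. Counting by gene cannot separate isoforms, such as those of Ppargc1a. The 5 libraries taken to be those the study excluded were left out. They were inferred by matching its published mean count per gene, over the libraries kept in a tissue, for each possible exclusion. Each tissue was fitted in edgeR 4.0.16 (R 4.3.3) with a mean per group, TMM scaling and a minimum of 10 counts over the tissue, and tested by quasi-likelihood, with p adjusted over all genes. Differences between depots came from joint fits of 2 tissues, and limma 3.58.1 and DESeq2 1.42.0 served as alternatives. Log2 CPM used a prior count of 2. The script was checked on simulated counts. Libraries of 1 group came from different mice.

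The 10 regulators, 9 lists of 112 pathway genes and 10 marker lists were chosen with earlier results of these data known. All 10 regulators are named in every tissue, up to 3 genes per list and comparison by the smallest adjusted p, and 3 genes per regulator by likeness. A few genes that these rules name are not reported here.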

Additional observations from a re-analysis of the deposited data

Results flagged for a closer look

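Of 147 groups of 4 to 7 libraries in which a regulator averaged at least 1 CPM, 16 had a library whose distance to its nearest neighbour was too large a part of the group's range by Dixon's 95% critical value, which chance exceeds in about 1 of 20 groups. Irf4 gave 5 of them: Ctrl_CE replicate 4 at 28.9 CPM in iBAT, 53.4 CPM in iWAT and 30.8 CPM in eWAT, all from 1 mouse, Ctrl_RT replicate 4 at 45.5 CPM in iBAT, and MetR_CE replicate 5 at 4.25 CPM in eWAT. The same Ctrl_CE mouse stood apart in iBAT for Ebf2, at 80.6 CPM the lowest of its group, and for Esrrg, at 48.7 CPM the highest. The iBAT library Ctrl_RT replicate 4 was also the lowest of its group for Esrra, at 268.8 CPM. Ppard stood out in Liver at 49.1 CPM in Ctrl_RT replicate 1 and at 25.1 CPM in MetR_RT replicate 3. Esrrg was at 6.01 CPM in eWAT Ctrl_RT replicate 6. In iWAT Ctrl_RT, Ppara was at 32.1 CPM in replicate 7 and Esrra at 113 CPM in replicate 5. Prdm16 was at 69.3 CPM in iBAT MetR_CE replicate 3 and at 10.1 CPM in eWAT MetR_CE replicate 4, and Ebf2 was lowest in iBAT MetR_RT replicate 7 at 58.2 CPM.

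Responses that differed between depots were flagged by the test of the difference itself, on the log2 scale, 32 in all. In iWAT against iBAT the differences with cold were 1.39 for Ppargc1b, 1.56 for Ppara, 0.54 for Pparg, 0.61 for Prdm16 and 2.22 for Esrrg. With methionine restriction they were 1.15 for Ppargc1b, 1.78 for Ppara, 0.54 for Pparg, 0.78 for Prdm16, 0.84 for Esrra and 2.45 for Esrrg. With both stresses they were 1.55, 1.92, 0.64, 1.13, 0.73 and 2.97 for the same 6 genes. In iWAT against eWAT they were 2.11 for Ppargc1a, 0.49 for Ebf2 and 0.83 for Esrra with cold, 3.41 for Esrrg with methionine restriction, and 2.84 for Ppargc1a, 0.78 for Prdm16, 1.23 for Esrra and 3.395 for Esrrg with both. In iBAT against eWAT they were 1.82 for Ppargc1a, 0.83 for Ebf2 and -1.59 for Irf4 with cold, -0.61 for Pparg with methionine restriction, and 2.28 for Ppargc1a, -0.40 for Pparg and 0.53 for Esrra with both. The cold response on the restricted diet differed from that on the control diet by -0.65 for Pparg in Liver and by 0.55 for Ebf2 in eWAT.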

How the results depend on the processing

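The alternatives moved no call to the opposite direction, and for single genes 837 values kept their side of the threshold, 50 gained a call and 64 lost it. Counts of called regulators that moved by more than 1.5 times follow, as the value reported and then the alternative, and where nothing else is said the cause was not tested. Requiring also a 1.5-fold change took iBAT from 6 to 3 with cold, from 5 to 3 with both, from 4 to 2 for MetR_CE against MetR_RT and from 5 to 2 for Ctrl_CE against MetR_RT, and all 5 eWAT counts above 0 to 0, since those changes are smaller. DESeq2 gave 1 in place of 0 in iBAT for MetR_CE against Ctrl_CE (Ebf2) and in eWAT with the diet (Pparg, 0.62), 2 in place of 0 for the iWAT interaction (Esrra -0.84, Esrrg -1.75) and 2 in place of 1 for the eWAT interaction (Pparg -0.60 beside Ebf2). Fitting only the groups compared gave 1 in place of 0 in iBAT for MetR_CE against Ctrl_CE, and in eWAT 1 in place of 2 with cold and 0 in place of 1 with both. A stricter count filter gave 1 in place of 0 for the iWAT interaction (Esrra). The eWAT interaction fell from 1 to 0 with RLE size factors, with no filter and with all libraries, and all libraries also took eWAT MetR_CE against Ctrl_CE and Ctrl_CE against MetR_RT from 1 to 0 (Ebf2), iWAT against eWAT with the diet from 1 to 2, and iBAT against eWAT with the diet from 1 to 0, as did RLE size factors. With the mouse as a random block in limma, iWAT against eWAT with the diet went from 1 to 0. A paired sign-flip test over mice called 0 of the 30 steps between tissues in place of 18, and with at most 7 mice its smallest adjusted p was 0.0938, above the threshold.

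Leaving out each eWAT Ctrl_RT library gave 1 to 2 calls with cold, 0 to 1 with the diet, 0 to 1 with both and 0 to 1 for the interaction. The following leave-outs were chosen after seeing the data. Without eWAT Ctrl_RT replicate 6, iWAT against eWAT with the diet went to 0, with the Esrrg difference at 1.36, and without replicate 1, 6 or 7 iBAT against eWAT with the diet went to 0. Without the mouse Ctrl_CE replicate 4, iBAT gave 1 in place of 0 with the diet, for the interaction and for MetR_CE against Ctrl_CE (Irf4 each time), and iWAT against eWAT with cold gave 1 in place of 3. Without Liver Ctrl_RT replicate 1 the diet count went from 3 to 1, as Ppargc1b and Ppard lost their calls. Leaving out iBAT Ctrl_RT replicate 4, iWAT Ctrl_RT replicate 7, iWAT MetR_RT replicate 6 or eWAT MetR_RT replicate 2, and grouping the 3 tagged libraries by tag or omitting them, moved no count by over 1.5 times.

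Same-numbered libraries of a tissue come from different mice. Their deviations had median correlations of -0.006 for Liver, -0.013 for iBAT, 0.079 for iWAT and 0.108 for eWAT. The libraries that correlated best with their own number were 2 of 28, 5 of 26, 4 of 27 and 7 of 24 in the same order. With the number as a replicate block, the Liver interaction went from 1 to 0 (Pparg -0.64) and the eWAT interaction from 1 to 0 (Ebf2 0.53), and no other count moved by over 1.5 times. Levels under 1 CPM (Prdm16 and Irf4 in Liver) rest on few reads, and 4 control libraries limit eWAT.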
